A study of Mus musculus with 4 samples.

Results

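The type I interferon antiviral response genes were chosen by name, as a list of 49 genes known to carry the signal of type I interferon or to be induced by it. The count table held 48 of them among 18751 distinct gene names, and 1, Ifi27, had no row. RNA was measured in PMN-MDSCs (polymorphonuclear myeloid-derived suppressor cells), which resemble neutrophils and hold back T cells in hosts with tumours. The 2 wild-type (WT) libraries came from C57BL/6 mice with the unaltered gene, and the 2 knockout (KO) libraries from mice labelled C57BL/6 and CD300ld KO, without the CD300ld receptor that myeloid cells display. All mice were 8 weeks old by the labels and bore a subcutaneous tumour of B16-F10, a transplantable mouse melanoma line, for 15 days, and the cells were enriched magnetically with a neutrophil kit. The organ, the deleted part of the gene and the cells in which it is deleted are not named in the labels. Nor is it said whether a library was 1 mouse or a pool, so the p-values reflect the spread among these 4 libraries alone, and that spread may be technical.

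Type I interferons are cytokines that nearly every cell makes when its sensors meet foreign RNA or DNA. They bind a receptor of the IFNAR1 and IFNAR2 chains, whose kinases activate STAT proteins, STAT2 among them, and these join IRF9 in a complex that binds a DNA element, the interferon-stimulated response element (ISRE), near the genes it switches on. The induced proteins cut, edit or trap viral RNA, block entry and budding, and feed back on the signal itself. Neutrophils and monocytes in tumours are known to carry such genes at varying levels.

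Library totals ran from 674599 to 920839 counts, and a gene with 0 counts in a library is limited to between 3.26 and 4.45 counts per 1e6 (CPM; 3 counts, counting error only). The targeted gene itself, Cd300ld, had 2 and 3 counts in KO against 0 and 11 in WT, too few to check the genotype labels. H2-Ea-ps, from a class II gene that C57BL/6 mice do not express, had 274 and 313 counts in KO against 0 and 1 in WT, so the knockout and other inherited differences between the genotypes cannot be told apart. All 15 neutrophil granule and surface markers were detected in every library, but erythroid markers summed to between 154586 and 212540 CPM per library, so the preparation was mixed. In bulk RNA, fewer cells of a type and less RNA per cell cannot be told apart.

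In KO, 11 of the 41 genes with enough counts to test were lower than in WT and 0 were higher (edgeR's quasi-likelihood test, Benjamini-Hochberg adjusted over 7685 genes, threshold 0.05). Of all genes tested, 5.97% passed by the same rule, 3.27% lower and 2.71% higher. At an unadjusted p below 0.05, 17 of the 41 were on the lower side and 1, Ifnar2, on the higher, against 9.19% and 9.69% of all genes tested. DESeq2 called 10 lower and 0 higher, against 2.28% and 1.61% of all genes tested. The 11 were Xaf1, Oas2, Ifit1, Oasl2, Oas1a, Oas3, Ifitm3, Irf7, Rsad2, Usp18 and Isg15, of which 10 fell at least 2-fold and 5 at least 4-fold. Fitted log2 fold changes ran from −4.07 for Xaf1 to 0.67 for Ifnar1, with a median of −0.74 over the 41 genes against 0.00 over all genes tested, and 34 of the 41 were negative. For 28 of the 41 genes (68.3%) both KO libraries lay below both WT libraries, against 23.6% of all genes tested. For 4 (9.76%) they lay above, against 24.5%. In the same libraries the summed level of 15 neutrophil granule and surface markers in KO was 0.147 of WT. That of 10 late neutrophil markers was 0.908 of WT and that of 15 monocyte and macrophage markers 0.459 of WT. The part of these cell types in the changes was not tested. Xaf1 and Oasl2 passed the filter on low counts through their WT libraries alone. Oas2, Oas1a and Ifit1 had 1 KO library above its limit of about 12 CPM (12.9, 14.7 and 12.3 CPM). Their other KO library lay below it (6.13, 9.40 and 10.6 CPM), so they too needed a WT library to be tested. With no filter, 13 of 48 genes were lower and 0 higher, the median was −0.84, and Ifitm2 and Oas1g were the added calls.

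**Figure D1:**
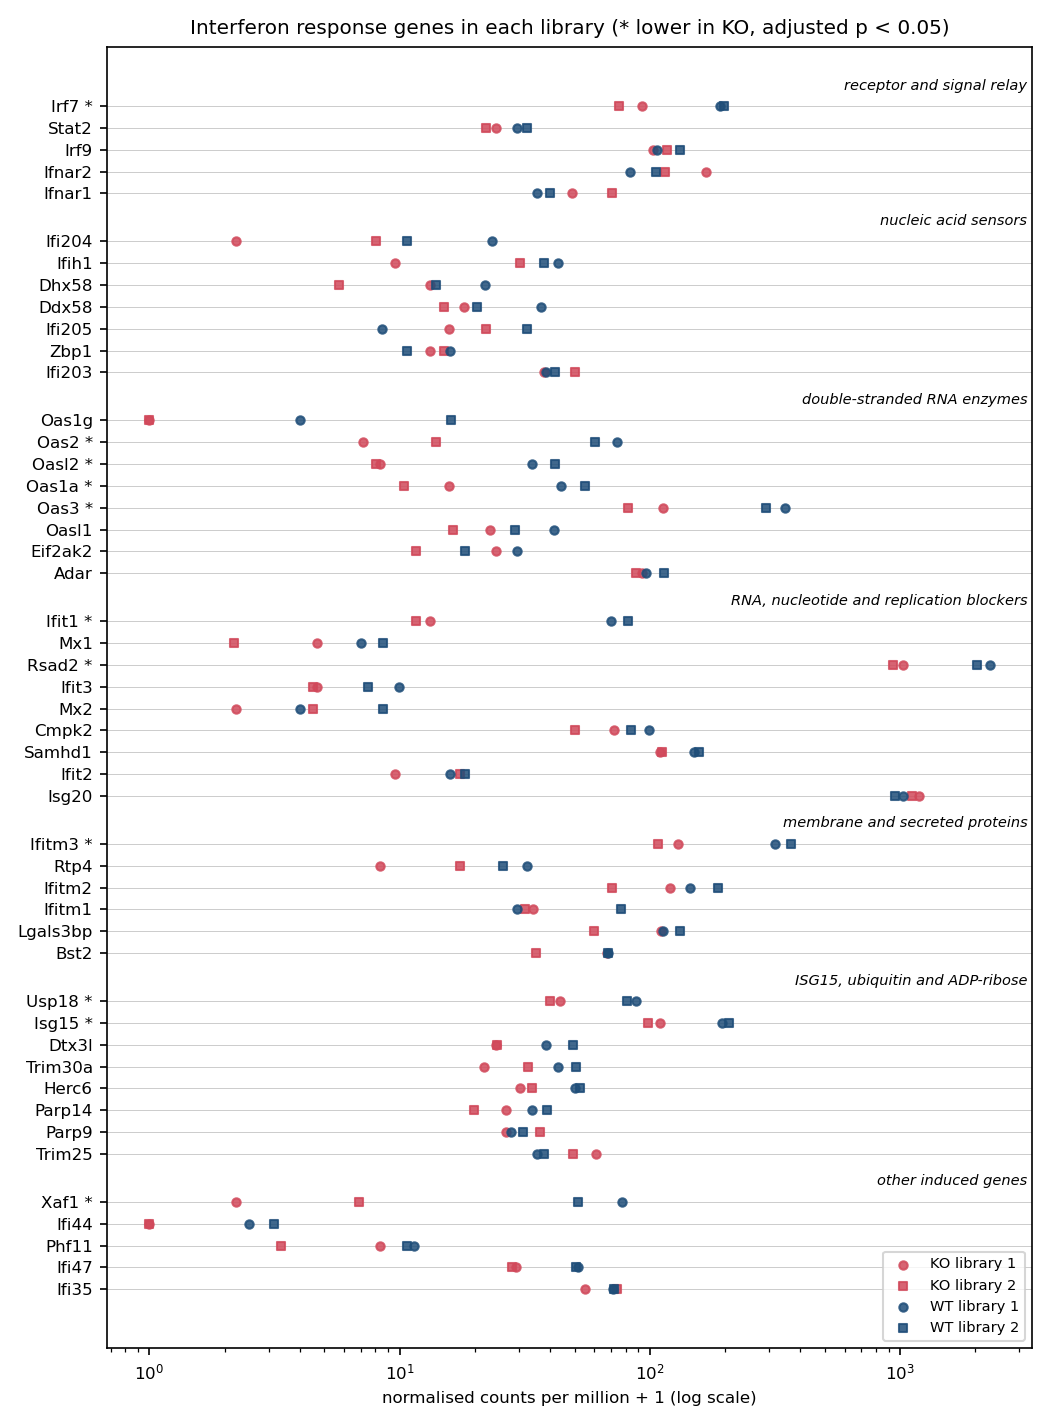
Level of each of the 48 interferon genes in each library, as normalised CPM + 1 on a log scale, grouped by role. Red points are KO and blue points WT libraries, a circle is library 1 and a square library 2, and a star marks the 11 genes lower in KO. Red lies left of blue for most genes and right of it for Isg20, Ifnar1, Ifnar2 and Trim25.

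To show what the genes of the set share beyond their names, the RefSeq promoters (GRCm38.p6; 250 bases before to 50 after each start) were searched for the core of the ISRE (GAAA, any 2 bases, GAAA) on both strands, with overlapping matches counted separately. A promoter was at hand for 37 of the 48 genes, and the core stood in 17 of them (45.9%), against 3.99% of 27025 genes. It stood in 6 of the 9 genes that were lower in KO, in 9 of 25 that were tested and did not pass, and in 2 of 3 that were not tested. A match is a description of letters, and these genes were chosen because they are known to be induced by interferon or to carry its signal. The promoters of Dhx58, Zbp1, Ifi204, Oas2, Mx1, Mx2, Rtp4, Usp18, Parp9, Parp14 and Phf11 were not used here. The stretches shown here are from 5 genes that were lower in KO, from Oas1g, the near-copy of Oas1a, and from Bst2 and Stat2, which did not pass the test. They read 5′ to 3′ along each gene's strand, with the core in capitals.
Isg15: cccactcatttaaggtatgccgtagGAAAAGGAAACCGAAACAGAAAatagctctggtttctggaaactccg
Ifit1: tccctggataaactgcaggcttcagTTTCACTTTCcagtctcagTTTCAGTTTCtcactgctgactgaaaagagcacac
Oas1a: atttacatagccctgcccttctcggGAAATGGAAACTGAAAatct
Oas1g: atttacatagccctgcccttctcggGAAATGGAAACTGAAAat
Oas3: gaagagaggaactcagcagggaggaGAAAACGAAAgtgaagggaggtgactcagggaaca
Rsad2: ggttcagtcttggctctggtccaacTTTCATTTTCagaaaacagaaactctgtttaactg
Bst2: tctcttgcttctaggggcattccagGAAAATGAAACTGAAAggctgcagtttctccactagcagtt
Stat2: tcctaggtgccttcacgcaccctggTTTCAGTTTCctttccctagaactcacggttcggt

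In GRCm38.p6 the Isg15 stretch is at chr4:156200850-156200921 on the minus strand and holds 3 overlapping cores. The Ifit1 stretch, at chr19:34640760-34640838 on the plus strand, holds 2 separate cores written on the opposite strand. The Oas1a stretch, at chr5:120907526-120907570, and the Oas1g stretch, at chr5:120887614-120887656, are both on the minus strand and each hold 2 overlapping cores. The Oas3 stretch at chr5:120777700-120777759 and the Rsad2 stretch at chr12:26456538-26456597, both on the minus strand, hold 1 core each, that of Rsad2 written on the opposite strand. The Bst2 stretch is at chr8:71537562-71537627 on the minus strand with 2 overlapping cores. The Stat2 stretch is at chr10:128270251-128270310 on the plus strand with 1 core, written on the opposite strand. Genes with the same core thus stood on both sides of the threshold. Oas1a fell 4.03-fold, with limits to this call that are given below. Bst2 had a log2 fold change of −0.42 ± 0.33 (SE, adjusted p = 0.553 in edgeR). The value for Bst2 moved to −0.99 with KO library 1 dropped and to −0.018 with KO library 2 dropped. Whether the changes of Oas1a and Bst2 differ was not tested. Xaf1, Oasl2 and Irf7 were lower in KO and have no core in the searched window.

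Of the 5 receptor and relay genes, Irf7 alone passed the test. Ifnar1, the first receptor chain, had 39 and 59 counts in KO against 23 and 36 in WT, and Ifnar2, the second, had 136 and 97 counts in KO against 55 and 97 in WT. In CPM, both KO libraries lay above both WT libraries for each chain, but neither passed the test, with log2 fold changes of 0.67 ± 0.33 (SE, adjusted p = 0.292) and 0.57 ± 0.24 (adjusted p = 0.206). Stat2 and Irf9, which belong to the complex that binds the ISRE, did not pass either. Stat2 had 19 and 18 counts in KO against 19 and 29 in WT (log2 fold change −0.43 ± 0.43, adjusted p = 0.672). Irf9 had 109 ± 10.4 CPM (mean ± SD, n = 2) in KO against 119 ± 17.9 CPM in WT, with overlapping libraries. Irf7, the factor that interferon induces and that drives interferon-α genes, fell. It had 75 and 63 counts in KO against 127 and 183 in WT, which is 83.0 ± 12.6 CPM against 194 ± 5.25 CPM, a 2.33-fold lower level (adjusted p = 0.00168 in edgeR). The KO values of Irf7 lay well below the WT values, with no overlap.

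None of the 6 tested sensors of foreign nucleic acid passed the threshold in edgeR, 0 did so in DESeq2, and 0 had an unadjusted p below 0.05. Ifih1, encoding the long-RNA sensor MDA5, had 7 and 25 counts in KO against 28 and 34 in WT (log2 fold change −1.03 ± 0.50, adjusted p = 0.280). Its value turned on KO library 1, the lowest: it was −2.17 when KO library 2 was dropped (adjusted p = 0.0259) but −0.42 when KO library 1 was dropped (adjusted p = 0.770). Ddx58, encoding the RNA sensor RIG-I, and Dhx58, their regulator LGP2, had log2 fold changes of −0.79 ± 0.51 and −0.97 ± 0.68. Zbp1, a sensor of Z-form nucleic acids, had 10 and 12 counts in KO against 10 and 9 in WT, and Ifi203, of the PYHIN family of DNA-binding proteins, had 30 and 42 in KO against 25 and 38 in WT. Ifi205, of the same family, had 12 and 18 counts in KO against 5 and 29 in WT. The libraries of these 3 genes overlapped between genotypes. Ifi204, another PYHIN gene, was not tested. It had 1 and 6 counts in KO against 15 and 9 in WT, a KO to WT ratio of 0.279 (exact 95% interval 0.102 to 0.668, counting error only). Of the 36-base windows of its longest transcript, 41% occur in other genes, chiefly of the same family, so its counts are uncertain.

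The enzymes of double-stranded RNA held the largest share of calls, with 4 of 7 tested genes lower and 0 higher. As a sum over the 8 genes of the group, they stood at 277 and 223 CPM in KO and at 662 and 618 CPM in WT. Oas2 and Oas3, oligoadenylate synthetases whose product activates the nuclease RNase L, had 5 and 11 counts against 49 and 55, and 91 and 69 against 231 and 269, with KO first. Oas2 was 6.79-fold lower (log2 fold change −2.76 ± 0.44, adjusted p = 0.000826) and Oas3 was 3.29-fold lower (−1.72 ± 0.20, adjusted p = 5.11e-05). Each KO library of these genes was far below each WT library. Without KO library 2 the log2 fold change of Oas2 was −3.39.

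Oasl2, an oligoadenylate synthetase-like protein with ubiquitin-like domains, had 6 counts in each KO library against 22 and 38 in WT, and was 5.07-fold lower (adjusted p = 0.0104). Oas1a had 12 and 8 counts in KO against 29 and 50 in WT and was 4.03-fold lower (adjusted p = 0.0105). Both calls ended without WT library 2, with adjusted p = 0.118 for Oasl2 and 0.0583 for Oas1a, and limma-voom gave adjusted p = 0.0719 for Oasl2. Oas1g had 0 counts in each KO library and 2 and 14 in WT, and was not tested. Against a floor of 3 counts over the KO group it was at least 5.57-fold lower, but 14 of its 16 WT counts came from WT library 2, and with 2 counts in WT library 1 no fold can be given without it. Oas1a shares 65.7% of its 36-base windows with other genes, Oas1g first among them, so the division of reads between them is uncertain. The sum of Oas1a and Oas1g, which leaves out other genes that share these windows, was 12 and 8 counts in KO against 31 and 64 in WT.

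The other 3 tested genes of the group did not pass. Oasl1, known in mice to restrain translation of IRF7, had a log2 fold change of −0.85 ± 0.46 (adjusted p = 0.337). Eif2ak2, the kinase PKR that halts translation, had −0.41 ± 0.55 (adjusted p = 0.771). Adar, which edits adenosine to inosine in double-stranded RNA, had 75 and 74 counts in KO against 64 and 105 in WT (log2 fold change −0.23 ± 0.23, adjusted p = 0.669). Adar is also made constitutively from another start, and gene counts do not separate the forms. Its longest transcript shares 21% of windows with Chrnb2, which overlaps it.

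Among the proteins that block viral RNA, nucleotides and replication, 2 of 6 tested genes fell, Ifit1 and Rsad2. Ifit1, which binds viral RNA with foreign cap structures, had 10 and 9 counts in KO against 46 and 75 in WT. That is 11.4 ± 1.19 CPM against 74.8 ± 8.54 CPM, a 6.51-fold lower level (log2 fold change −2.70 ± 0.38, adjusted p = 0.000291). Ifit2, its partner in the same protein complex and a nearby gene on chromosome 19, had 7 and 14 counts in KO against 10 and 16 in WT. Its libraries overlapped, and its log2 fold change was −0.36 ± 0.60 (adjusted p = 0.818). In gene order, Ifit1 lies 5 genes after Ifit2. Ifit3, between them, had 3 counts in each KO library and 6 in each WT library and was not tested. It shares 58.5% of windows with Ifit3b. Of these 3 genes Ifit1 alone passed, and whether its change differs from that of Ifit2 was not tested.

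Rsad2, encoding viperin, which makes a chain-terminating nucleotide, had 839 and 796 counts in KO against 1530 and 1888 in WT, and was 2.20-fold lower (log2 fold change −1.14 ± 0.12, adjusted p = 1.58e-05). Isg20, an exonuclease of RNA, had 969 and 950 counts in KO against 688 and 883 in WT. Its KO libraries lay just above its WT libraries, at 1152 ± 50.1 CPM against 990 ± 54.1 CPM, and its log2 fold change of 0.22 ± 0.12 did not pass (adjusted p = 0.365). These are the best counted genes of the set and have the smallest errors. Scaled by the longest transcript of each gene (GENCODE M21, another build), Isg20 had the highest level in both genotypes, at 911 CPM per kb in WT and 1060 in KO, and Rsad2 the second, at 516 and 234 CPM per kb.

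Cmpk2, a mitochondrial nucleotide kinase whose gene lies next to Rsad2 on chromosome 12, had 58 and 42 counts in KO against 66 and 77 in WT (log2 fold change −0.59 ± 0.27, adjusted p = 0.260). Samhd1, which breaks down the building blocks of DNA, had 110 ± 1.00 CPM in KO and 153 ± 4.83 CPM in WT, with no overlap and a log2 fold change of −0.48 ± 0.20 (adjusted p = 0.210). Mx1 and Mx2, the Mx GTPases, were not tested. Mx1 had 3 and 1 counts in KO against 4 and 7 in WT, and Mx2 had 1 and 3 in KO against 2 and 7 in WT. RefSeq lists both as transcribed pseudogenes in this genome, and C57BL/6 mice are known to carry defective Mx alleles.

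**Figure D2:**
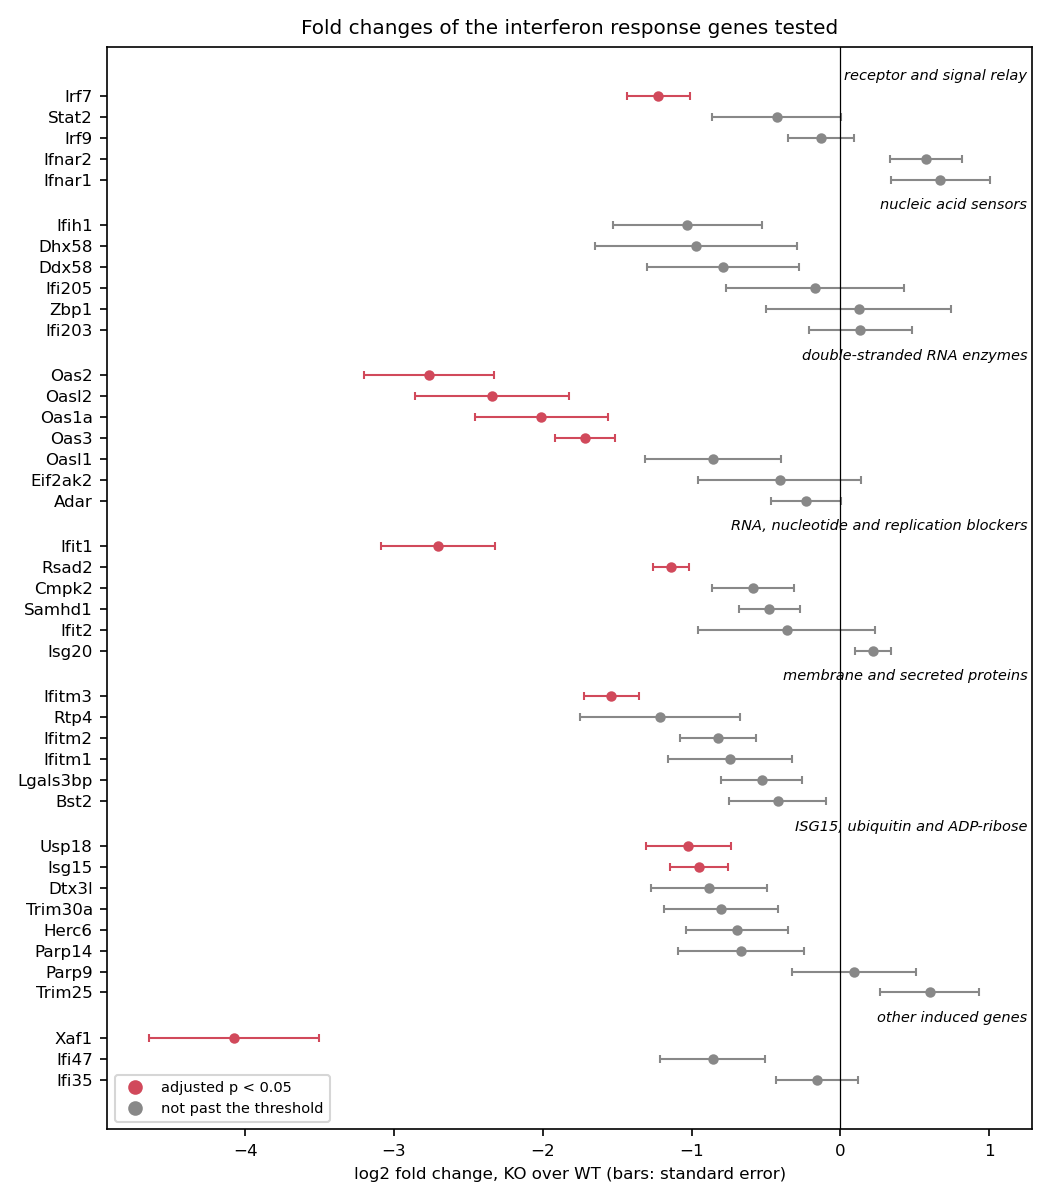
Log2 fold changes of KO over WT for the 41 tested genes, grouped by role, with bars of 1 standard error from the edgeR fit. Red points passed the threshold and grey points did not; all red points lie between −4.07 and −0.95.

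Of 6 genes for membrane and secreted proteins, 1 fell. Ifitm3, which stops viruses as they leave endosomes, had 105 and 91 counts in KO against 212 and 340 in WT, a 2.91-fold lower level (log2 fold change −1.54 ± 0.18, adjusted p = 6.12e-05). Its neighbours on chromosome 7, Ifitm2 and Ifitm1, encode proteins of the same family. Ifitm2 had 97 and 59 counts in KO against 96 and 173 in WT (log2 fold change −0.82 ± 0.25, adjusted p = 0.0713), and it passed without KO library 1 (−1.27, adjusted p = 0.00167) and without WT library 1 (−1.01, adjusted p = 0.00507), but not without KO library 2 (−0.48, adjusted p = 0.415), without WT library 2 (−0.62, adjusted p = 0.276) or in DESeq2 (adjusted p = 0.223). Ifitm2 shares 53.4% of its windows with other genes, so its counts are uncertain. Ifitm1 had 27 and 26 counts in KO against 19 and 70 in WT, so that WT library 2 alone set its difference: its log2 fold change was −0.74, was −1.26 without WT library 1 (adjusted p = 0.0329) and turned to 0.16 without WT library 2.

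Bst2, the tether that holds budding virus at the membrane, had 54 and 29 counts in KO against 45 and 62 in WT. Rtp4, which binds foreign RNA and transports receptors, had 6 and 14 counts in KO against 21 and 23 in WT (log2 fold change −1.21 ± 0.54, adjusted p = 0.230). Lgals3bp, a secreted galectin-binding glycoprotein, had 90 and 50 counts in KO against 75 and 121 in WT (log2 fold change −0.53 ± 0.27), and its value rested on KO library 2: it was −1.06 with KO library 1 dropped (adjusted p = 0.0309) but −0.14 with KO library 2 dropped (adjusted p = 0.879). KO libraries of these 3 genes lay below the WT libraries in CPM, by little for the higher KO library of Bst2 and of Lgals3bp.

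In the ISG15, ubiquitin and ADP-ribose group, 2 of 8 genes fell. Isg15, a ubiquitin-like protein that is joined to other proteins, had 89 and 83 counts in KO against 129 and 191 in WT, or 103 ± 8.14 CPM against 199 ± 9.23 CPM (1.93-fold lower, adjusted p = 0.00695). Usp18, the protease that removes ISG15 and also damps the interferon receptor, had 35 and 33 counts in KO against 58 and 74 in WT (2.03-fold lower, adjusted p = 0.0431). The Usp18 call was narrow. It ended with each library left out in turn (adjusted p = 0.0693 to 0.145), in DESeq2 (adjusted p = 0.223) and with a filter of 1 CPM in 2 libraries (adjusted p = 0.0627). Herc6, the main ligase for ISG15 in mice, had 24 and 28 counts in KO against 33 and 48 in WT, with no overlap in CPM and a log2 fold change of −0.70 ± 0.34 (adjusted p = 0.290).

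Dtx3l and Parp9 encode a ligase and its ADP-ribosyltransferase partner, and their gene bodies overlap. Dtx3l had 19 and 20 counts in KO against 25 and 45 in WT (log2 fold change −0.88 ± 0.39, adjusted p = 0.227), and Parp9 had 21 and 30 in KO against 18 and 28 in WT (0.09 ± 0.42, adjusted p = 0.945). The strand setting of the counts is not given, so reads of the shared stretch cannot be assigned. Parp14, an ADP-ribosyltransferase beside them on chromosome 16, had −0.67 ± 0.42, and Trim30a, a regulator of Toll-like receptor signals, −0.80 ± 0.38. Trim25, a ligase that acts on RIG-I, had 49 and 41 counts in KO against 23 and 34 in WT. Its KO libraries lay above its WT libraries, with a log2 fold change of 0.60 ± 0.33 (adjusted p = 0.359).

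Of the remaining genes, Xaf1, encoding a binding partner of the apoptosis inhibitor XIAP, had the largest change of the set. It had 1 and 5 counts in KO against 51 and 47 in WT, and 3.55 ± 3.29 CPM against 63.4 ± 18.1 CPM. The fitted fold was 16.8 (log2 fold change −4.07 ± 0.57, adjusted p = 0.000266), and the counts summed by genotype gave a KO to WT ratio of 0.0586 (exact 95% interval 0.0210 to 0.132, counting error only). Without KO library 2 the log2 fold change was −5.51, and without KO library 1 it was −3.40, with the call kept in both. In limma-voom its log2 fold change was −4.12 with an adjusted p of 0.0640. Ifi47, an interferon-inducible GTPase, had 23 counts in each KO library against 34 and 46 in WT (−0.86 ± 0.35, adjusted p = 0.192). Ifi35, a partner of the protein NMI, had 44 and 62 counts in KO against 47 and 66 in WT, which overlapped in CPM. Ifi44 had 0 counts in each KO library against 1 and 2 in WT. Phf11 had 6 and 2 counts in KO against 7 and 9 in WT. RefSeq now gives the name Phf11 to a pseudogene, so which transcript the table's row counts is uncertain.

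The 7 genes below the filter together had 29 counts in KO and 91 in WT, a ratio of 0.305 (exact 95% interval 0.194 to 0.468, counting error only). Their low totals are why they were not tested, so the ratio is a description.

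**Figure D3:**
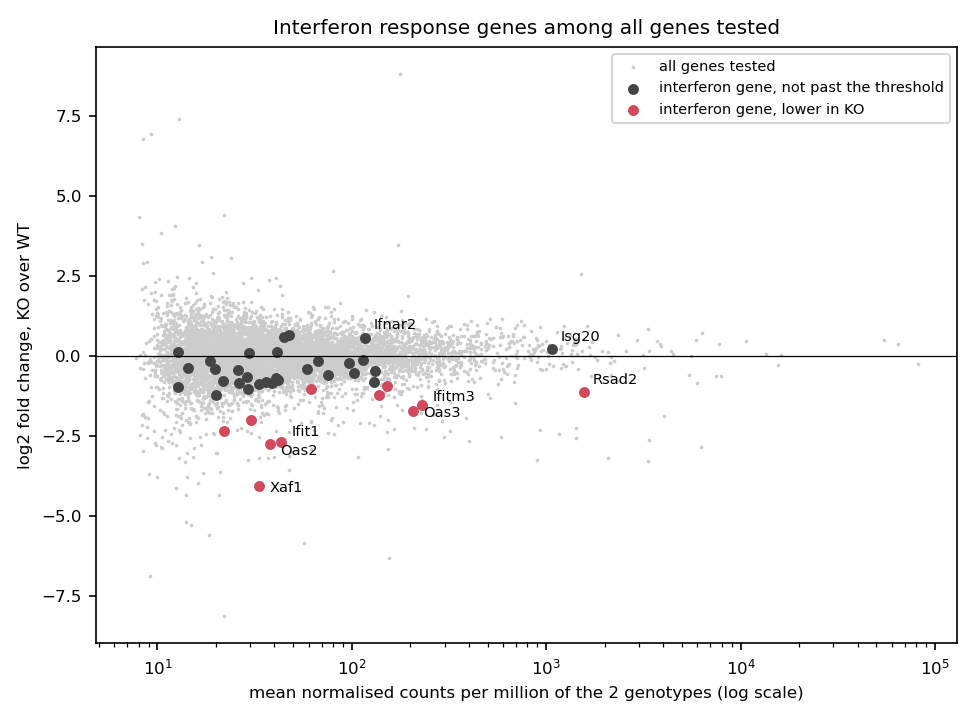
Log2 fold change of KO over WT against the mean normalised CPM of both genotypes (log scale) for all 7685 genes tested (grey), with the 41 interferon genes in black and the 11 lower ones in red. Most interferon points lie under the zero line; Isg20 and Rsad2, at the right, have like levels and fold changes of 0.22 and −1.14.

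The rest of the pathway was counted over 139 other listed genes, of which 77 were tested, 2 were lower and 0 higher in edgeR and in DESeq2, with 10 lower and 2 higher at an unadjusted p below 0.05. The 2 called lower are close to what the shares over all genes give (3.27% in edgeR and 2.28% in DESeq2). At an unadjusted p below 0.05 those shares were 9.19% lower and 9.69% higher, so the 2 on the higher side are fewer than that share gives. Of the 77 genes, 48 had negative log2 fold changes, against 49.7% of all genes tested. The median log2 fold change of the 77 was −0.13 against 0.00 for all genes tested. No type I interferon gene had more than a few reads: Ifna2 had 2 counts in WT library 2, Ifna7 1 count in KO library 1, and Ifna12, Ifna13 and Ifne 1 count each in a WT library. Ifng, the type II interferon, had 1 and 3 counts in KO against 0 and 6 in WT. Whether ligands differed was not detectable at this depth. Among receptor kinases and STATs none of 7 tested genes passed in edgeR or DESeq2, and 0 had an unadjusted p below 0.05. Jak1, the kinase on IFNAR2, had a log2 fold change of 0.22 ± 0.18 (adjusted p = 0.562).

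None of the 6 tested other IRF genes, the 10 of the induction pathway or the 10 negative regulators passed in edgeR or DESeq2, and 1, 0 and 1 of them, respectively, had an unadjusted p below 0.05. Irf8, a factor of monocyte and dendritic cell fate, had 278 and 235 counts in KO against 166 and 307 in WT, and Unc93b1, the escort of nucleic acid-sensing Toll-like receptors, had 197 and 228 in KO against 212 and 261 in WT. Ptpn6, encoding the phosphatase SHP-1, had a log2 fold change of −0.33 ± 0.17 (adjusted p = 0.303). Of 44 tested other interferon-induced genes, 2 fell in edgeR, Ifitm6 and Sp100, against 3.27% of all genes tested. At an unadjusted p below 0.05, 8 of the 44 were lower and 2 higher, against 9.19% and 9.69% of all genes tested. Ifitm6, a family member best known from myeloid cells, had 34 and 26 counts in KO against 189 and 240 in WT (log2 fold change −2.90 ± 0.23). Sp100, a nuclear body protein, had 79 and 75 in KO against 159 and 181 in WT (−1.22 ± 0.20, adjusted p = 0.00136). Ube2l6, the conjugating enzyme of ISG15, is well counted and had 1463 and 1469 counts in KO against 1255 and 1623 in WT, with overlapping libraries and a log2 fold change of −0.04 ± 0.11. Uba7, the enzyme before it, had 0.06 ± 0.17. The 4 enzymes of the ISG15 cycle named here thus had log2 fold changes of −1.02 for Usp18, −0.70 for Herc6, −0.04 for Ube2l6 and 0.06 for Uba7, of which the first alone passed.

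The summed level of the 48 genes was 4128 and 3756 CPM in KO and 6359 and 6200 CPM in WT, so that KO stood at 0.628 of WT. Without Rsad2 and Isg20, the genes with the most counts, KO stood at 0.578 of WT. By role the ratio ran from 0.391 for the double-stranded RNA enzymes to 0.875 for the receptor and relay genes. In each of the 7 groups both KO sums lay below both WT sums, most narrowly for the receptor and relay genes, at 431 and 395 CPM against 441 and 503 CPM.

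Markers of cell types moved in the same libraries. The 15 neutrophil granule and surface markers were all lower in KO, and their sum was 6003 and 5510 CPM in KO and 36815 and 41415 CPM in WT, a ratio of 0.147. Of the 9 tested late neutrophil markers, 1 was lower and 1 higher. Sums of that list ran from 1136 to 1321 CPM in KO and from 1332 to 1375 CPM in WT, a ratio of 0.908. Of 14 monocyte and macrophage markers 6 were lower, and the sum was 641 and 833 CPM in KO and 1541 and 1669 CPM in WT, a ratio of 0.459. Of 8 plasmacytoid dendritic cell markers, from the cell type known as the main source of type I interferon, 1 was higher: Siglech had 61 and 97 counts in KO against 30 and 34 in WT (adjusted p = 0.0201 in edgeR, with 0 of the list called in DESeq2). The sum of that list was 852 and 740 CPM in KO and 677 and 642 CPM in WT. B lineage sums ran from 5690 to 6268 CPM in KO and from 4308 to 5045 CPM in WT with 0 of 10 called in edgeR or DESeq2 and 3 higher at an unadjusted p below 0.05, against 9.69% of all genes. T and NK cell sums were 459 and 485 CPM in KO and 408 and 441 CPM in WT, a ratio of 1.11; of 12 markers 10 had positive log2 fold changes and 3 were higher at an unadjusted p below 0.05, and the 1 that passed the adjusted threshold, Nkg7, was lower. The erythroid sum stood at 1.28 times WT, with 9 of 15 markers higher. Of 6 conventional dendritic cell markers none passed in edgeR or DESeq2, with 1 at an unadjusted p below 0.05, and the melanoma genes Pmel and Mitf had at most 2 counts in any library. What part these cell types had in the interferon values was not tested. When erythroid, haemoglobin and mitochondrial genes were left out, 11 interferon genes were lower and the median was −0.75. Leaving these genes out changes the scaling of the libraries but not the counts of the interferon genes. It therefore cannot show what part erythroid cells had in the interferon values.

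**Figure D4:**
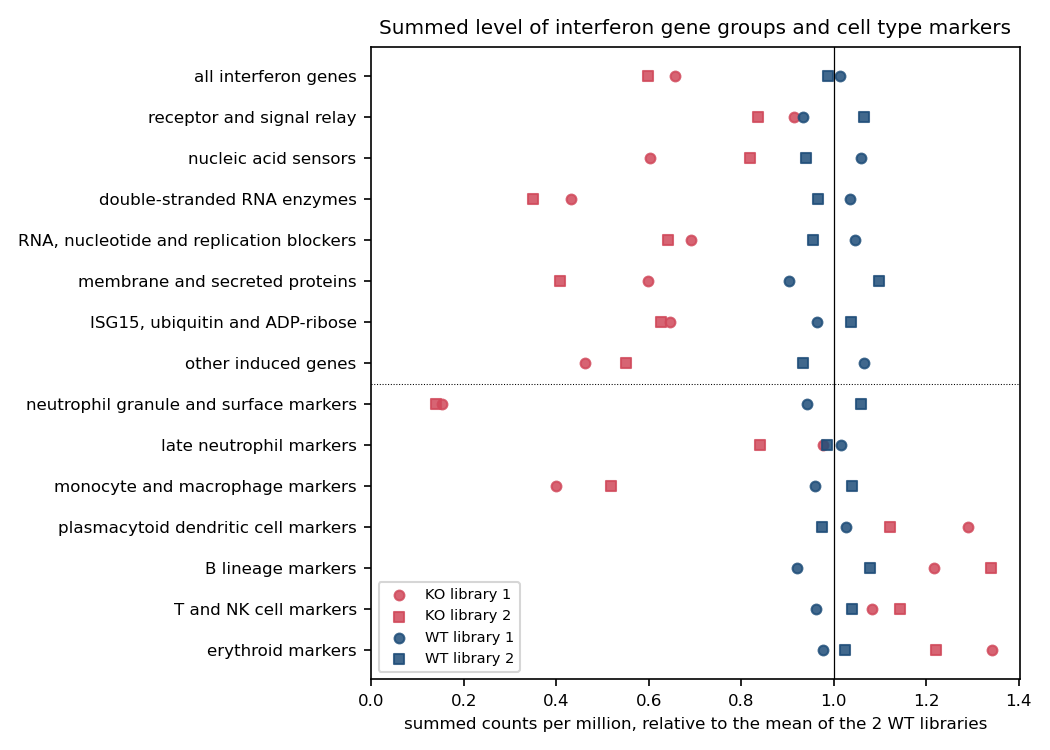
Summed CPM of the interferon genes, of their 7 role groups and of cell type marker lists in each library, divided by the mean of the WT libraries. The sum of all interferon genes in KO is 0.628 of WT. That of neutrophil granule and surface markers is 0.147 of WT, of late neutrophil markers 0.908 and of monocyte and macrophage markers 0.459.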

How the data were processed

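RNA was sequenced from 4 libraries, 2 per genotype, made with a TruSeq kit from TRIzol RNA, per the labels' protocols. The authors deposited raw counts of reads per gene, as whole numbers. The submitters' processing notes name Bowtie 0.12.2 and the builds mm8 and mm9, with no role for either. The sources used here do not give the counting program, annotation or strand setting. The 21831 rows held 18751 names, each kept once. Column names give the genotype but not the sample, so library numbers are only names. Columns left unused numbered 0.

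The test was that of edgeR 4.0.16 in R 4.3.3 (TMM scaling; filterByExpr with a minimum count of 10, about 12 CPM, and a minimum total of 15; quasi-likelihood test; Benjamini-Hochberg over all genes tested; threshold 0.05). The SE is the log2 fold change over the square root of F. CPM used TMM-scaled library sizes. The fit was tested on simulated counts. Alternatives were DESeq2 1.42.0, limma-voom (limma 3.58.1), other scalings, filters and thresholds, and each library left out.

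Genes and lists were chosen with earlier results of these data known. All 48 genes could be named. From the other lists, the 3 called genes with the smallest p could be named, or the 2 most abundant; other genes were named after their values were seen. Shared windows were 36 bases long, on either strand, in GENCODE M21 transcripts; the read length is not given. A gene of the other pathway lists is not reported here.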

Additional observations from a re-analysis of the deposited data

How the results depend on the processing

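The count of lower interferon genes was between 10 and 13 under 10 alternatives, and 8 to 12 with 1 library left out, with 0 higher each time; of the 11 genes, 8 to 10 were still called when a library was left out. Usp18, Oas1a, Oasl2 and Xaf1 lost their calls as given above, and Isg15 (−0.95) lies under a limit of 1 on the log2 fold change. Among 7685 genes, 459 were called, 299 in DESeq2, 280 with that limit and 701 at an adjusted p below 0.1. Without a library the other pathway genes called numbered 2 to 4, the highest without KO library 1. Signs turned for genes that did not pass: with 1 library left out, log2 fold changes ran from −0.29 to 0.032 for Irf9, −0.19 to 0.42 for Zbp1, −0.10 to 0.31 for Ifi203, −0.81 to 1.24 for Ifi205, −1.09 to 0.055 for Eif2ak2, −0.90 to 0.010 for Ifit2, −1.26 to 0.16 for Ifitm1, −0.15 to 0.28 for Parp9 and −0.39 to 0.029 for Ifi35. The library that turned the sign was WT 2 for Irf9, Zbp1 and Ifitm1, KO 1 for Ifit2 and Ifi35, KO 2 for Ifi203 and Eif2ak2, either of KO 1 (0.05) and WT 2 for Ifi205, and either of KO 2 and WT 1 (−0.0031) for Parp9. The cause was not tested. A filter on the mean of all libraries, chosen after seeing the data, left 11. No paired analysis was possible because the columns cannot be tied to samples and the labels' numbers are not shared. At these depths many genes rest on few counts, and one that missed the threshold is not shown to be unchanged.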

Other observations

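Of the interferon genes, 6 lie on chromosome 11 with Cd300ld (RefSeq gene order). Lgals3bp is nearest, with 97 genes between them, and Xaf1, the gene with the largest change, has 734 between. The log2 fold changes of the 6 run from −4.07 for Xaf1 to 0.60 for Trim25, and Xaf1 alone passed the threshold.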
